A study of Mus musculus with 4 samples.

Results

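Glomeruli of GC-A knockout mice given aldosterone and salt were compared with glomeruli of GC-A knockout mice given the control treatment, 1 array each, which were 2 of the 4 arrays of the study. All mice were male and had lost a kidney by uninephrectomy. In the group called KO ALDO here, mice lacking guanylyl cyclase A (GC-A) in the whole body received aldosterone by continuous subcutaneous delivery together with a 6% salt diet for 3 weeks. In KO control, mice of the same genotype received 2% ethanol by the same route with a normal diet. WT ALDO and WT control were wild-type mice under the same treatments, and these 2 arrays are used only to show where the knockout comparison differs. Aldosterone and the salt diet were given together, so they cannot be told apart. The sources used here do not give strain, age, the knockout allele, blood pressure or the number of mice behind an array.

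GC-A is the cell surface receptor that answers atrial natriuretic peptide and B-type natriuretic peptide. When a peptide binds it, the receptor makes cyclic GMP, which relaxes vessels, promotes sodium excretion and opposes the renin-angiotensin-aldosterone system. Aldosterone acts through the mineralocorticoid receptor to raise sodium reabsorption in the distal nephron, and with a high salt intake it is widely used to injure the kidneys of rodents. The glomerulus is the filter of the kidney, built from podocytes, fenestrated endothelium and mesangial cells on a shared basement membrane.

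Each value is a probe set intensity, and a difference is KO ALDO minus KO control on the log2(intensity + 16) scale, which understates the change of dim genes. Of 18193 genes, the 9097 in the brighter 50% by mean over the 4 arrays (intensity of about 247 or more) were counted, and the others are called dim. A gene below that limit on both control arrays could be counted only through its ALDO arrays, which favours a higher value there. Such genes below include Sost, Kynu, Abcb1b, Bmp2 and Lama2. Cxcl13 is such a case on the lower side, being below the limit on both ALDO arrays. As each group had 1 array, there was no replicate error and no test, and the precision of each value below is limited by the number of arrays. "Higher" and "lower" therefore describe 2 arrays. Over the genes counted the median difference was 0.01, and the central 90% lay between -0.37 and 0.51. In KO ALDO 52 genes (0.572% of those counted) were higher by 2-fold or more and 12 (0.132%) were lower by 2-fold or more. At 1.5-fold or more, 312 (3.43%) were higher and 124 (1.36%) lower. In all, 4761 genes (52.3%) were above 0 and 4336 (47.7%) below 0, and these shares are the background for the gene lists below.

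Some technical measures differed between the 2 arrays. Median intensity over all probe sets was 103 in KO ALDO and 97.7 in KO control. The ratio of 3' to 5' signal, which climbs as RNA degrades, was 1.61 in KO ALDO and 1.67 in KO control for beta-actin, and 0.74 on both for Gapdh. All 42 spiked-in control probe sets were lower on KO ALDO. The 18 hybridisation controls had a median difference of -0.11 (range -0.27 to -0.04), and the 24 poly-A controls had a median of -0.27 (-0.46 to -0.07). Every KO list median below 0, those of proximal tubule and TCA cycle genes included, is smaller in size than the poly-A offset. The lowest was -0.23, for carbonic anhydrases and aquaporins. The part of this offset in these medians was not tested. Of the 52 higher genes, 11 had another bright probe set, of which 9 had the same direction and 4 were past 2-fold too. Of the 12 lower genes 5 had another bright probe set, with the same direction in 4 and past 2-fold in 2. Probe sets of a gene read the same RNA and say nothing of the spread between animals.

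Podocyte markers were present, but with no array of other kidney tissue they cannot show how far glomeruli were enriched. Nephrin (Nphs1), the slit diaphragm protein, had an intensity of 1899 in KO ALDO and 1675 in KO control. Podocalyxin (Podxl), which coats podocyte foot processes, had 10271 in KO ALDO and 8492 in KO control. Tubule transcripts were bright as well. The brush border phosphate transporter Slc34a1 had 24042 in KO ALDO and 25726 in KO control, and the thick limb protein uromodulin (Umod) had 29223 in KO ALDO and 30615 in KO control. A difference may therefore come from glomerular or tubular cells, and in such bulk RNA more or fewer cells of a type and more or less RNA per cell cannot be told apart.

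The targeted gene Npr1, which encodes GC-A, was dim on every array, with an intensity of 23.4 in KO ALDO and 108 in KO control, against 60.5 in WT ALDO and 92.6 in WT control. The sources used here do not say whether its probe set lies in the deleted part, so the genotype labels are not checked by these values. Its ligand genes were dim too. Nppa, atrial natriuretic peptide, had 42.2 in KO ALDO and 50.1 in KO control. Nppb, B-type natriuretic peptide, had 79.0 in KO ALDO and 95.8 in KO control. The other natriuretic peptide receptors were well measured and differed little. Npr3, the clearance receptor, had 1088 in KO ALDO and 994 in KO control (difference 0.13). Npr2, which binds C-type natriuretic peptide, had 668 in KO ALDO and 589 in KO control (0.18).

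The list of natriuretic peptide and cyclic GMP genes, which also holds these receptors, the nitric oxide synthase Nos3 and the soluble cyclase that nitric oxide activates, had a median difference of 0.39 over 12 counted of 20 listed members, with 10 above 0. The same list had a median of 0.19 between WT ALDO and WT control. In KO ALDO 4 members were higher by 1.5-fold or more. Gucy1a2, a subunit of the soluble guanylyl cyclase that answers nitric oxide, had 398 in KO ALDO and 215 in KO control (0.84). Prkg1, the cyclic GMP-dependent kinase of smooth muscle, had 507 in KO ALDO and 310 in KO control (0.69). The phosphodiesterase Pde2a had 3340 in KO ALDO and 2154 in KO control (0.63), and the soluble cyclase subunit Gucy1a1 had 1571 in KO ALDO and 1030 in KO control (0.60). At the other end Pde9a, a phosphodiesterase specific for cyclic GMP, had 505 in KO ALDO and 698 in KO control (-0.45). The WT difference was -0.04 for Gucy1a2 and 0.11 for Prkg1, but 0.50 for Pde2a and 0.70 for Gucy1a1.

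Genes that answer mineralocorticoid and glucocorticoid receptors were mostly above 0 in KO ALDO, by small amounts. The list had a median of 0.19 with 16 of 21 counted members above 0 and 2 past 1.5-fold, Cdkn1a (0.66), the cell cycle inhibitor p21, and Scnn1a (0.63), the alpha subunit of the epithelial sodium channel. Scnn1a had 1196 in KO ALDO and 768 in KO control, against 549 in WT ALDO and 534 in WT control. Its partners differed less: Scnn1g had 2599 in KO ALDO and 2040 in KO control (0.35), and Scnn1b had 715 in KO ALDO and 803 in KO control (-0.16). The kinase Sgk1, an early mineralocorticoid target, had 14065 in KO ALDO and 10820 in KO control (0.38). In WT all 21 members were above 0, with a median of 0.36. Of the 21 members 5 had a larger difference in KO than in WT. Fkbp5 was at 0.22 in KO and 0.71 in WT, and Tsc22d3 at 0.19 in KO and 0.70 in WT, while Per1 was at 0.44 in KO and 0.32 in WT, and Dusp1 at 0.35 in KO and 0.30 in WT. The mineralocorticoid receptor gene Nr3c2 was at the border of the dim genes, with 249 in KO ALDO and 254 in KO control. The glucocorticoid receptor Nr3c1 had 1526 in KO ALDO and 1941 in KO control (-0.34). Hsd11b1, which regenerates active glucocorticoid, had 1519 in KO ALDO and 1001 in KO control (0.59), while Hsd11b2, which protects the mineralocorticoid receptor from it, was at 0.05.

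**Figure D1:**
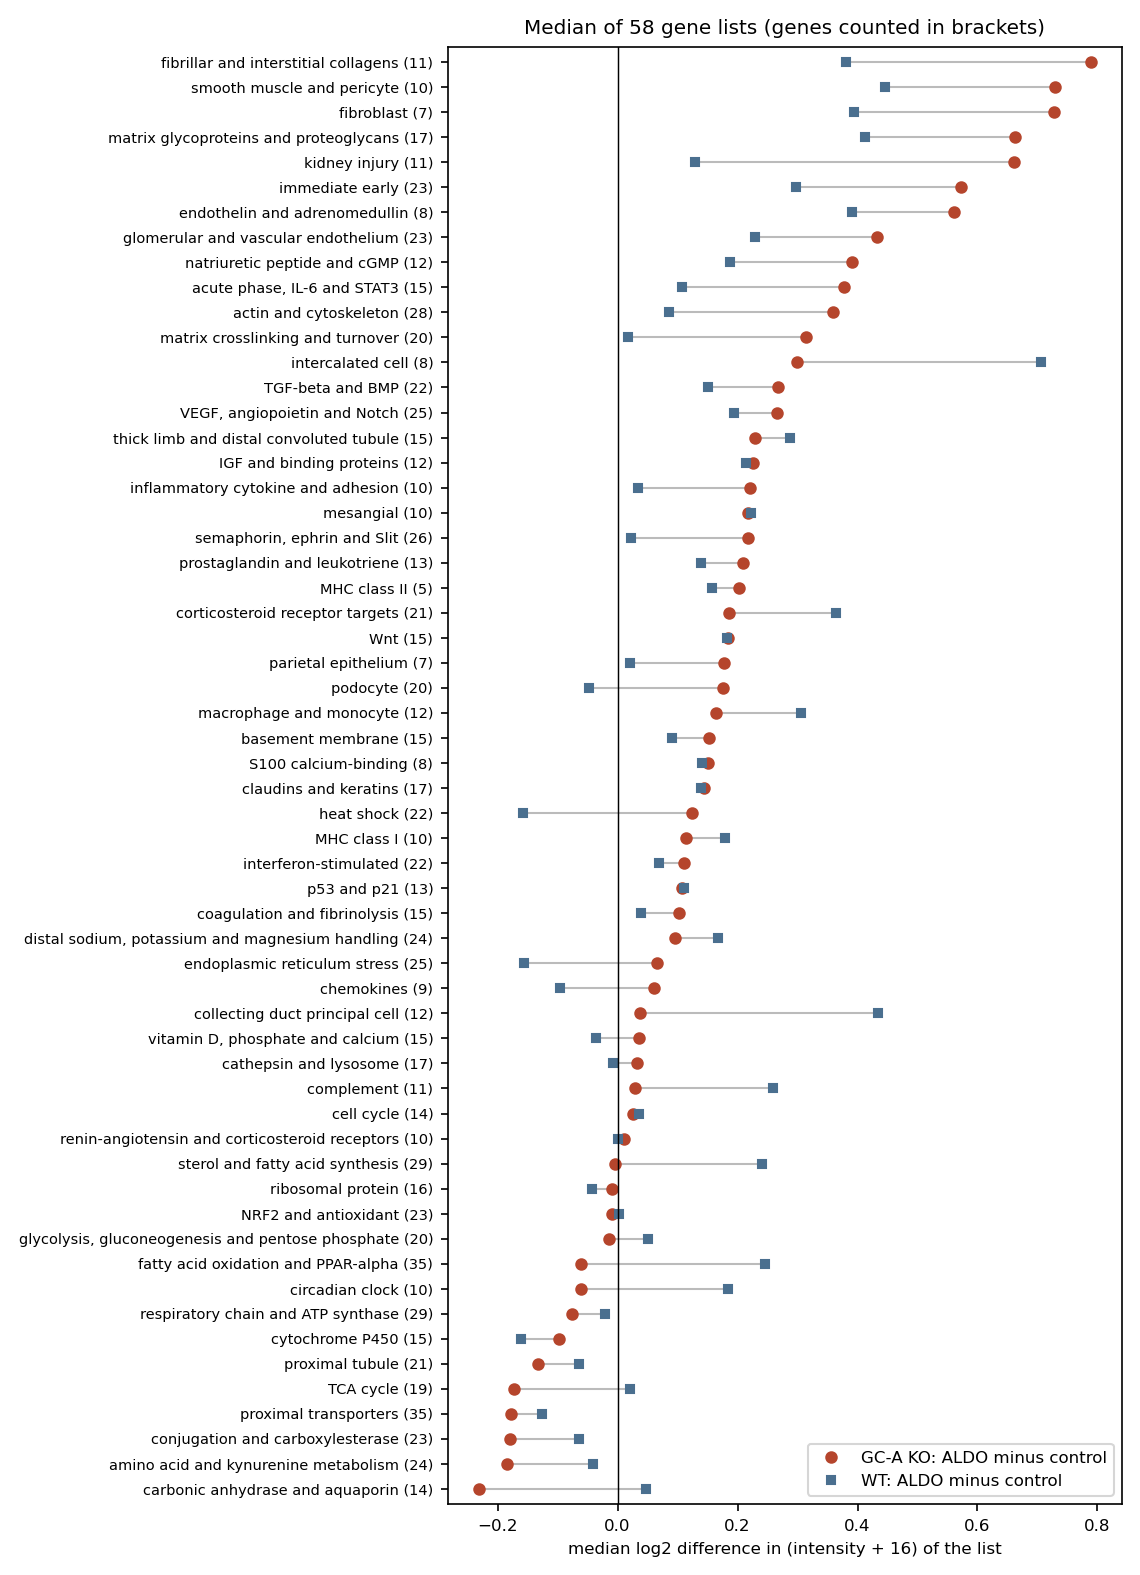
Median log2 difference (ALDO minus control) of the 58 gene lists with 5 or more genes counted, with the number of genes in brackets, ordered by the median in GC-A KO (red circles) and set beside the median in WT (blue squares). Interstitial collagens lead in GC-A KO with 0.79, and the metabolic lists lie below 0.

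Genes of the interstitial matrix were higher in KO ALDO. All 11 counted collagens of the fibrillar and interstitial list were above 0 in KO ALDO, 9 of them by 1.5-fold or more. Their median was 0.79, the highest of the 58 lists in the plot of list medians. The brightest was Col1a2, a chain of type I collagen, with 5510 in KO ALDO and 2947 in KO control (0.90), against 2844 in WT ALDO and 2500 in WT control (0.18). Col3a1, the type III chain, had 2000 in KO ALDO and 1172 in KO control (0.76), against 857 in WT ALDO and 520 in WT control (0.71). Both had their highest signal on KO ALDO, and the difference in Col3a1 was of like size in both genotypes. The beaded filament collagen VI was higher in all 3 chains, with Col6a1 at 0.90, Col6a3 at 0.84 and Col6a2 at 1.51. Col6a2 had 793 in KO ALDO and 267 in KO control, against 220 in WT ALDO and 352 in WT control, and its other bright probe set gave 0.84 in the knockout pair. Col14a1 (0.85), Col12a1 (0.79), Col5a1 (0.73) and Col8a1 (0.60) completed the 9, and Col18a1 (0.26) and Col5a2 (0.21) were the lowest. Col1a1 was dim by its mean over the 4 arrays but had 450 in KO ALDO and 245 in KO control, against 93.1 in WT ALDO and 160 in WT control.

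Matrix glycoproteins and proteoglycans had a median of 0.66, with 16 of 17 counted members above 0 and 10 past 1.5-fold. Fibronectin, Fn1, had 1980 in KO ALDO and 757 in KO control (1.37), against 685 in WT ALDO and 511 in WT control (0.41). Matrix Gla protein (Mgp), an inhibitor of vascular calcification, had 6436 in KO ALDO and 2697 in KO control (1.25), and it was also higher in WT, with 3413 in WT ALDO and 1592 in WT control (1.09). The elastic fibre proteins Emilin1 (1.08) and Fbln5 (1.04) were past 2-fold. Tenascin C (Tnc), a glycoprotein of remodelling tissue, had 665 in KO ALDO and 350 in KO control, against 155 in WT ALDO and 193 in WT control. Ecm1 (0.99), Sparcl1 (0.90), Thbs1 (0.86), Bgn (0.66) and Sparc (0.65) were the others past 1.5-fold. Decorin (Dcn) differed less in the knockout pair than in WT, at 0.18 in KO and 0.76 in WT. Of the 9 dim members Postn, Fbln2 and Matn2 were above 0 and the others below. Periostin (Postn) had 142 in KO ALDO and 69.9 in KO control, while lumican (Lum) had 158 in KO ALDO and 259 in KO control (-0.66).

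Enzymes that build and cut the matrix were less uniform, with a median of 0.31 and 15 of 20 above 0. The 3 members higher by 1.5-fold or more act in crosslinking or maturing collagen: the lysyl oxidase Loxl1 had 825 in KO ALDO and 399 in KO control (1.02), the procollagen proteinase Bmp1 was at 0.76 and the lysyl hydroxylase Plod2 at 0.72. Mep1b, a subunit of the brush border protease meprin, was the lowest, with 528 in KO ALDO and 908 in KO control (-0.76). Mmp2 was at -0.07 and Mmp14 at 0.41. The protease inhibitor Timp1, dim by its mean, had 376 in KO ALDO and 166 in KO control, against 65.1 in WT ALDO and 52.5 in WT control. Of the 5 dim members Mmp9 (-1.78) alone was below 0.

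The basement membrane list, the structural matrix of the filter itself, differed less than the interstitial matrix, with a median of 0.15, 11 of 15 above 0 and 2 past 1.5-fold. Those were Lama2 (1.10), a laminin chain of muscle and vessel basement membranes, and Nid2 (0.73). The widely expressed type IV chains Col4a1 and Col4a2 were at 0.34 and 0.54. Of the type IV chains of the mature glomerular network, Col4a5 was at 0.23, Col4a4 at 0.09 and Col4a3 at -0.03. Its laminin chains Lamb2, Lama5 and Lamc1 were at 0.43, -0.09 and -0.04.

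In the TGF-beta and BMP pathway, which drives much matrix production, 20 of 22 counted members were above 0 with a median of 0.27, and 3 were past 1.5-fold. The ligand Bmp2 had 521 in KO ALDO and 218 in KO control (1.20). The inhibitory Smad6, itself a BMP target, had 3174 in KO ALDO and 1498 in KO control (1.07), against 1487 in WT ALDO and 1583 in WT control. Endoglin (Eng), a co-receptor on endothelium, was at 0.74. Connective tissue growth factor (Ccn2), a TGF-beta target, was at 0.53 in both genotypes. The receptors Tgfbr1, Tgfbr2 and Tgfbr3 and the transducers Smad1 to Smad4 lay between Tgfbr2 at 0.38 and Smad3 at -0.04. The lowest member was Id2 (-0.37). Of the dim ligands, Tgfb2 had 343 in KO ALDO and 115 in KO control, and Tgfb1 had 208 in KO ALDO and 145 in KO control.

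Markers of contractile and mesenchymal cells were higher alongside the matrix genes. All 10 counted smooth muscle and pericyte markers were above 0, 6 by 1.5-fold or more (median 0.73). The actin-binding protein transgelin (Tagln) had 1995 in KO ALDO and 719 in KO control (1.45), against 805 in WT ALDO and 478 in WT control (0.73). Smooth muscle actin (Acta2) had 6797 in KO ALDO and 2966 in KO control (1.19), against 3586 in WT ALDO and 2511 in WT control (0.51). The pericyte gene Rgs5 differed alike in both genotypes, at 0.83 in KO and 0.79 in WT. The smooth muscle myosin Myh11 differed more in WT, at 0.76 in KO and 1.55 in WT. Mcam (0.82) and Tpm2 (0.70) were the others past 1.5-fold, and desmin (Des, 0.25) was the lowest. Cspg4, a pericyte proteoglycan, had 688 in KO ALDO and 311 in KO control (1.11), and its other bright probe set gave 0.49. Fibroblast markers had a median of 0.73 with all 7 counted members above 0, led by the PDGF receptor Pdgfra (0.91), Col1a2 and Col3a1, which the collagen list also holds, and the complement inhibitor Serping1 (0.73). Of the 6 dim fibroblast markers, Col1a1, Dpt and Mfap5 were above 0, and Lum (-0.66), Clec3b (-0.51) and Fbln1 (-0.06) below. Summed over all members with a probe set, smooth muscle and pericyte markers had 33561 in KO ALDO and 19989 in KO control, and fibroblast markers 21352 in KO ALDO and 14103 in KO control. No value on the arrays was at 0. Whether a different share of vessel or interstitial cells in the preparation took part in the matrix differences was not tested.

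The cytoskeleton list had 25 of 28 counted members above 0, 10 past 1.5-fold and a median of 0.36, against 0.09 in WT. Vimentin (Vim), the intermediate filament of mesenchymal and injured epithelial cells, had 8566 in KO ALDO and 4288 in KO control (0.996), against 3607 in WT ALDO and 3533 in WT control (0.03). Annexin A1 (Anxa1) had 4331 in KO ALDO and 2141 in KO control (1.01), and tropomyosin 1 (Tpm1) had 2314 in KO ALDO and 1129 in KO control (1.02). Filamin A (Flna, 0.76) and the actinin Actn1 (0.75) also were past 1.5-fold. The cytoplasmic actins were at 0.07 (Actb) and -0.02 (Actg1), and ezrin (Ezr), a microvillus linker, was the lowest at -0.14.

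**Figure D2:**
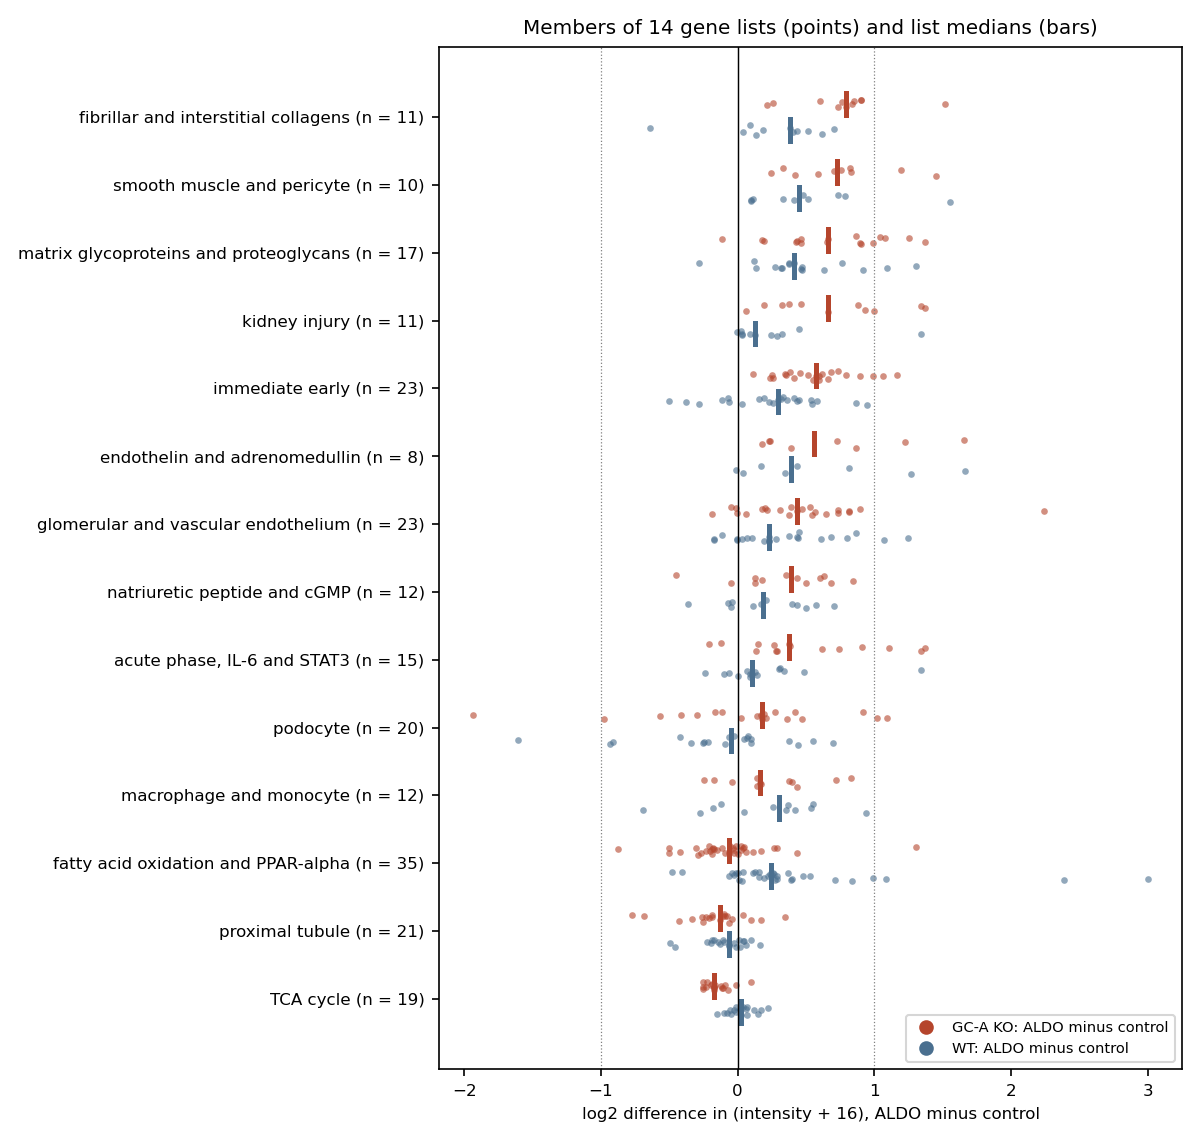
Log2 difference (ALDO minus control) of each gene counted in 14 lists, in GC-A KO (red, upper of each pair) and WT (blue, lower), with bars at the list medians and dotted lines at 2-fold. All 11 interstitial collagens and all 23 immediate early genes lie above 0 in GC-A KO, while 18 of the 19 TCA cycle genes lie below 0.

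Vascular genes gave some of the largest single differences. Sost, which encodes the Wnt inhibitor sclerostin, had the largest of all the named genes, with 806 in KO ALDO and 158 in KO control (2.24). It was also higher in WT, with 445 in WT ALDO and 179 in WT control (1.24). Ednrb, the endothelin B receptor that clears endothelin and triggers nitric oxide release, had 1736 in KO ALDO and 540 in KO control (1.66), and 1799 in WT ALDO and 556 in WT control (1.66). The difference in Ednrb was thus the same in both genotypes. The vasodilator peptide adrenomedullin (Adm) had 1944 in KO ALDO and 825 in KO control (1.22), against 873 in WT ALDO and 352 in WT control (1.27), and its other bright probe set gave 1.14 in the knockout pair. The difference was alike, but both knockout arrays were above their WT counterparts. In the list of endothelin and adrenomedullin genes all 8 counted members were above 0, with 4 past 1.5-fold. The others were the receptor activity protein Ramp3 (0.87) and the converting enzyme Ece1 (0.73), which had 1645 in KO ALDO and 986 in KO control, against 1352 in WT ALDO and 1318 in WT control. Endothelin 1 itself (Edn1) was at 0.39.

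Thrombomodulin (Thbd), the endothelial anticoagulant receptor, had 1846 in KO ALDO and 770 in KO control (1.24), against 1281 in WT ALDO and 731 in WT control (0.80). Of 15 counted coagulation and fibrinolysis genes, 9 were above 0 and the median was 0.10. The lowest were the clotting factors F5 (-0.74) and F8 (-0.62) and the anticoagulant protein C (Proc, -0.65). Endothelial markers had a median of 0.43 with 19 of 23 above 0 and 7 past 1.5-fold. The transcription factor Sox18 had 2031 in KO ALDO and 1085 in KO control (0.89), against 818 in WT ALDO and 799 in WT control (0.03). Cd34 (0.82), Tie1 (0.82), Eng, Plvap (0.73) and Fabp4 (0.64) followed, and Sost, described above, was the highest of the 7. Emcn was at 0.39 and Kdr, the main VEGF receptor, at 0.20. The 4 below 0 were Robo4, Plat (-0.01), Ehd3 (-0.05) and Erg (-0.19). The summed endothelial signal was 69234 in KO ALDO and 55183 in KO control. In the VEGF, angiopoietin and Notch list 23 of 25 were above 0 (median 0.27). Past 1.5-fold were Pdgfra, its relative Pdgfrb (0.70) and the ligand Pdgfb (0.62), while Vegfa was at 0.13 and the ligand of the Tek receptor, Angpt1, at -0.34.

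Podocyte genes went both ways. The list had a median of 0.18 with 13 of 20 above 0, and 3 higher and 2 lower members were past 1.5-fold. The largest lower difference of the named genes was Sema3g, a secreted semaphorin of podocytes, with 1734 in KO ALDO and 6674 in KO control (-1.93). It was also lower in WT, with 1843 in WT ALDO and 5641 in WT control (-1.61). The other lower member past 1.5-fold was Rhpn1, with 659 in KO ALDO and 1314 in KO control (-0.98), and -0.91 in WT. Tdrd5 (-0.56), Dach1 (-0.41) and Thsd7a (-0.30) were the next lowest. The cell cycle inhibitor Cdkn1c (p57) had 5275 in KO ALDO and 2467 in KO control (1.09), against 4752 in WT ALDO and 2919 in WT control (0.70). The transcription factor Tcf21 had 2110 in KO ALDO and 1033 in KO control (1.02). The tyrosine phosphatase Ptpro (GLEPP1) had 2966 in KO ALDO and 1564 in KO control (0.92). Structural genes of the filter were between these, with Actn4 at 0.36, Nphs1 at 0.18, Cd2ap at 0.14, Wt1 at -0.11 and Synpo at -0.16. The podocyte sum was 59632 in KO ALDO and 54164 in KO control. Mesangial markers had a median of 0.22, led by Fhl2 (0.81), Pdgfrb and Lhfp (0.61), with Art3 (-0.44) the lowest. Parietal epithelial markers had a median of 0.18 over 7 members, of which ceruloplasmin (Cp, 0.68) was past 1.5-fold.

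Genes of the acute phase response, the programme that interleukin 6 family cytokines start through the transcription factor STAT3, included the fibrinogen chains. These are made mainly by liver and are also induced in injured kidney epithelium. Fgg, the gamma chain, had 5082 in KO ALDO and 1995 in KO control (1.34), against 721 in WT ALDO and 676 in WT control (0.09). Fga, the alpha chain, had 3064 in KO ALDO and 1176 in KO control (1.37), against 812 in WT ALDO and 742 in WT control (0.13). Fgb, the beta chain, was dim by its mean over the 4 arrays, with 742 in KO ALDO and 119 in KO control, against 140 in WT ALDO and 61.3 in WT control. All 3 chains were highest on KO ALDO. Socs3, the feedback inhibitor that STAT3 induces, had 1221 in KO ALDO and 558 in KO control (1.11), against 180 in WT ALDO and 215 in WT control (-0.24), but its other bright probe set gave 0.23 in the knockout pair.

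The starts of the 3 fibrinogen genes lie within 42.1 kb of each other on chromosome 3 in the mouse build GRCm38.p6, and the 250 bases before each start, with those of Socs3, are shown because these 4 genes lead the acute phase list or neighbour its leaders. They were chosen after their values were seen and come from RefSeq, each 5′ to 3′ on the strand of its gene. Capitals mark the motif TTCNNNGAA, the form STAT proteins bind, which reads the same on both strands. Fga lies on the plus strand (window chr3:83025903-83026152), with the motif starting 234 bases before the gene. Fgb lies on the minus strand (chr3:83049864-83050113), with the motif at 162 bases. Fgg lies on the plus strand (chr3:83007474-83007723) and its window does not hold these letters. Socs3 lies on the minus strand of chromosome 11 (chr11:117969367-117969616), with the motif at 154 bases. Windows of the same length hold the motif in 7.02% of 32851 mouse promoters and in 5.42% of 9604 promoters of the genes counted. Of the counted acute phase genes, 13 had a promoter and 2 held it. A match describes the letters and does not show that a factor binds.
Fga: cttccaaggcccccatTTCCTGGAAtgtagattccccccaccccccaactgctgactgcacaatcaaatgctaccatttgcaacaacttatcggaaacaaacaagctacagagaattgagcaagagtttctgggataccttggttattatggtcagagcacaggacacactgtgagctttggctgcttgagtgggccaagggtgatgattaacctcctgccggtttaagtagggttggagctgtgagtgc
Fgb: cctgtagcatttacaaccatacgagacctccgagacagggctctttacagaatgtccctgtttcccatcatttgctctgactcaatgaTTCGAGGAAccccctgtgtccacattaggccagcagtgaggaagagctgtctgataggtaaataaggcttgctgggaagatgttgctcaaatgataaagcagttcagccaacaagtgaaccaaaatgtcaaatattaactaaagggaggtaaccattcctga
Fgg: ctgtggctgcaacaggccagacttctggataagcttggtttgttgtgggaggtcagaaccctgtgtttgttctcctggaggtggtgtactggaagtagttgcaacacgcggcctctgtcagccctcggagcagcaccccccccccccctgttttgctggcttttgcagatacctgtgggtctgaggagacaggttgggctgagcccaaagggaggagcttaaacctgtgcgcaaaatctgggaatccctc
Socs3: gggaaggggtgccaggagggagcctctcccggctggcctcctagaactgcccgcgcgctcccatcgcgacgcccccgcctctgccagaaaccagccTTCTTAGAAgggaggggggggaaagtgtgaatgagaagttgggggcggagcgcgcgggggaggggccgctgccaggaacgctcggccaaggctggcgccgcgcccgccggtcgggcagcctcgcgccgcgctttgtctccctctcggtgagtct

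Over the whole acute phase list, 13 of 15 counted members were above 0, 6 by 1.5-fold or more (median 0.38 in KO and 0.11 in WT). The oncostatin M receptor Osmr, which feeds STAT3, had 1134 in KO ALDO and 596 in KO control (0.91), against 498 in WT ALDO and 390 in WT control (0.34). Lrg1, a secreted acute phase glycoprotein, had 501 in KO ALDO and 293 in KO control (0.74), and 264 in WT ALDO and 263 in WT control. The transcription factor Cebpb was at 0.62. Stat3 itself was at 0.15, Jak1 at 0.13 and Jak2 at -0.12, and the receptor of leukaemia inhibitory factor, Lifr, was the lowest at -0.21. The cytokine gene Il6 was dim, with 33.0 in KO ALDO and 0.903 in KO control. Lipocalin 2 (Lcn2), bright on both knockout arrays, had 1950 in KO ALDO and 1497 in KO control (0.38), against 218 in WT ALDO and 76.5 in WT control (1.34).

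The kidney injury list, which shares Fga, Fgg and Lcn2 with the acute phase list, had all 11 counted members above 0 and 6 past 1.5-fold, with a median of 0.66, against 0.13 in WT. Besides the fibrinogen chains and Vim, Tnfrsf12a, the receptor for the cytokine TWEAK, had 2029 in KO ALDO and 1056 in KO control (0.93), against 729 in WT ALDO and 713 in WT control (0.03). Sprr1a had 879 in KO ALDO and 471 in KO control (0.88), against 446 in WT ALDO and 438 in WT control (0.03). The injury marker Havcr1 (KIM-1), which injured proximal tubule cells place on their surface, was dim by its mean, yet it had 1328 in KO ALDO and 308 in KO control, against 70.1 in WT ALDO and 39.3 in WT control. The hyaluronan receptor Cd44, also dim by its mean, had 693 in KO ALDO and 343 in KO control, against 123 in WT ALDO and 108 in WT control. The dim members Fgb and Timp1 are given with the fibrinogen chains and the matrix enzymes. Krt20 and Sox9 were below the limit of 247 on every array, with Krt20 at 85.8 in KO ALDO and 94.9 in KO control, and Sox9 at 80.5 in KO ALDO and 49.6 in KO control. The dim Vcan had 26.7 in KO ALDO and 43.3 in KO control (-0.47). Clu (0.33), Vcam1 (0.20) and Plin2 (0.06) had the smallest differences of the counted members.

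**Figure D3:**
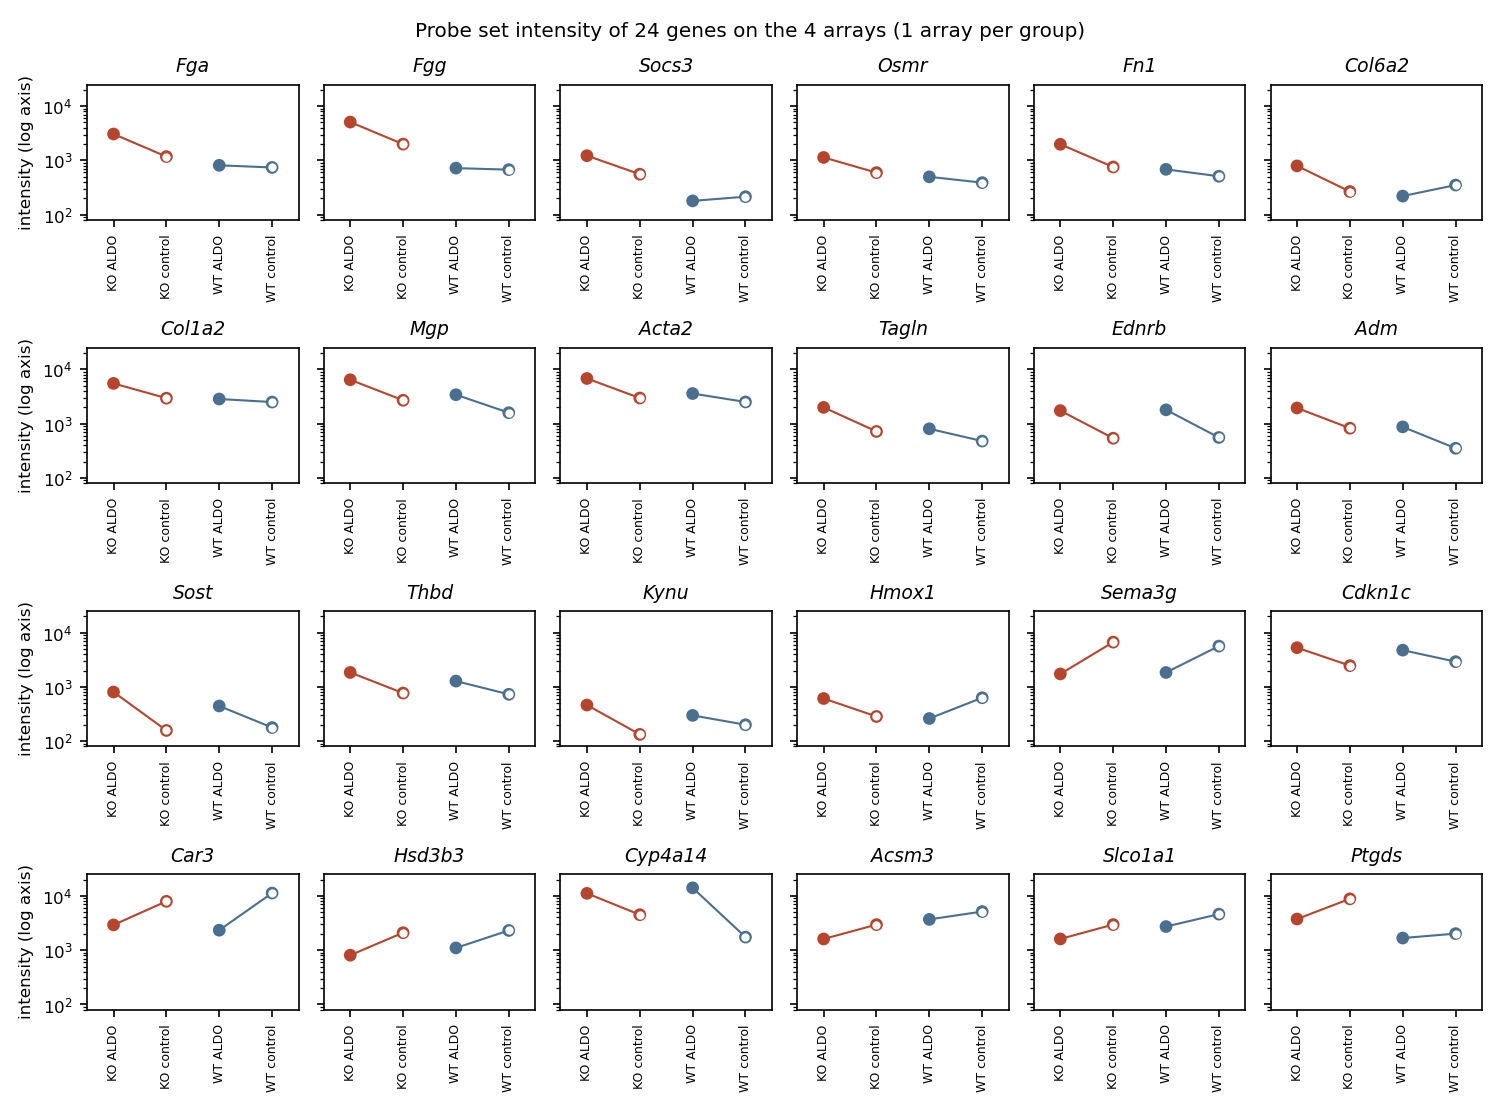
Probe set intensity (log axis) of 24 named genes on the 4 arrays, with GC-A KO in red and WT in blue, ALDO as filled and control as open circles, and a line joining the 2 arrays of a genotype. Fga and Fgg stand highest on KO ALDO and are nearly level in WT, while Ednrb and Sema3g differ alike in both genotypes.

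All 23 counted immediate early genes, which cells switch on within minutes of a stimulus, were above 0, 11 of them past 1.5-fold. Their median was 0.57, against 0.30 in WT. Egr1 had 822 in KO ALDO and 359 in KO control (1.16), and Ccn1 had 1782 in KO ALDO and 846 in KO control (1.06), against 588 in WT ALDO and 838 in WT control (-0.50). Another bright probe set of Ccn1 gave 0.41 in the knockout pair, short of 1.5-fold. Gadd45b (0.99), Ier3 (0.89), Klf4 (0.79) and Ier2 (0.73) followed, and Fos was at 0.57. The lowest were Jun (0.25), Gadd45g (0.23) and Dusp6 (0.12). Heat shock genes had a median of 0.12 with 17 of 22 above 0, while in WT only 2 of 22 were above 0 (median -0.16). The small heat shock protein Hspb1 had 2916 in KO ALDO and 1343 in KO control (1.11), against 1347 in WT ALDO and 1542 in WT control (-0.19), and its other bright probe set gave 1.11 as well. Hspb8 was at 0.76, and the near-identical pair Hspa1a and Hspa1b, best read together, at 0.68 and 0.64. Endoplasmic reticulum stress genes were near 0 (median 0.07, none past 1.5-fold), with Ddit3 (0.51) the highest.

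Most of the immune cell markers that were counted differed little between the knockout arrays, but many others were dim. Macrophage and monocyte markers had a median of 0.16, with 9 of 12 above 0. The 10 further members were dim and lay between C1qc (0.90) and Cd163 (-0.97). The lipopolysaccharide receptor Cd14 had 806 in KO ALDO and 446 in KO control (0.83), and C1qa, a chain of the first complement component, had 1196 in KO ALDO and 722 in KO control (0.72). Lysozyme (Lyz2, -0.18) and cathepsin S (Ctss, -0.24) were the lowest. Their sum was 19634 in KO ALDO and 16837 in KO control, against 8675 in WT ALDO and 8433 in WT control. MHC class II genes lay between 0.27 and -0.12 over 5 members, with the invariant chain Cd74 at 1578 in KO ALDO and 1717 in KO control. Lymphocyte genes other than Ptprc (-0.06) and Coro1a (0.13) were dim, as were 9 neutrophil genes. These dim genes lay on both sides of 0, from Ltf (1.30) to Gzma (-1.73), so a small difference cannot be stated for them. The neutrophil subunit S100a8 had 533 in KO ALDO and 462 in KO control (0.20), and was at -2.98 in WT. Of the chemokines, 18 were dim and 9 counted, with a median of 0.06. Cxcl13, which attracts B cells, stood far below the rest, with 209 in KO ALDO and 657 in KO control (-1.58), and it was also lower in WT, with 108 in WT ALDO and 459 in WT control (-1.94). Its other bright probe set gave -1.41 in the knockout pair. Cxcl12 was the highest at 0.56 (0.61 in WT). No interferon-stimulated gene was past 1.5-fold (median 0.11 over 22). Among cytokine and adhesion genes only Tnfaip3 (0.88), an inhibitor of NF-kappaB, was past 1.5-fold, with 10 counted.

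Proximal tubule genes were on the lower side, by small amounts. The marker list had a median of -0.13 with 4 of 21 above 0, and 2 members lower by 1.5-fold or more. Slc7a13, an amino acid transporter of the straight segment, had 4181 in KO ALDO and 7138 in KO control (-0.77), against 9159 in WT ALDO and 10467 in WT control (-0.19). Slc22a30 had 4439 in KO ALDO and 7145 in KO control (-0.68). The endocytic receptors Lrp2 (-0.04) and Cubn (0.17), which retrieve filtered protein, were near 0. The sum of the markers was 329706 in KO ALDO and 367724 in KO control, against 371108 in WT ALDO and 393771 in WT control, and whether a lower share of tubule in the preparation took part in the lower values was not tested. Of 35 counted proximal transporters 8 were above 0 (median -0.18). The organic anion transporter Slco1a1 had 1609 in KO ALDO and 2957 in KO control (-0.87), and was at -0.76 in WT. Its other bright probe set gave -0.36 in the knockout pair. The sodium-proton exchanger Slc9a3 was at -0.58, just short of 1.5-fold. The efflux pump genes differed among themselves. Abcb1b had 345 in KO ALDO and 152 in KO control (1.10), with 871 in WT ALDO and 207 in WT control (2.00), and Abcc4 was at 0.82, while Abcc2 was at -0.17, Abcg2 at -0.31 and Slc47a1 at -0.35.

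Further down the nephron the members of a list opposed each other. In the list of thick limb and distal convoluted tubule genes 9 of 15 were above 0, and 1.5-fold was passed by 3 higher and 2 lower members. Slc12a3, the thiazide-sensitive cotransporter that reabsorbs sodium in the distal convoluted tubule, had 13104 in KO ALDO and 8400 in KO control (0.64), against 10274 in WT ALDO and 8323 in WT control (0.30). The magnesium channel Trpm6 was at 0.69, and kininogen (Kng1) had 7435 in KO ALDO and 4361 in KO control (0.77), against 4804 in WT ALDO and 4838 in WT control (-0.01). The kinase Wnk4, which regulates Slc12a3, had 1950 in KO ALDO and 3309 in KO control (-0.76), against 2796 in WT ALDO and 2288 in WT control (0.29). Cldn16, a magnesium pore of the thick limb, was at -0.63, and the loop diuretic-sensitive Slc12a1 at -0.33. Collecting duct markers had a median of 0.04 in KO (-0.01 with each array centred on its median) and 0.43 in WT, with 7 of 12 above 0 in KO and 12 of 12 in WT. The water channel Aqp2 was at 0.03 in KO and 0.66 in WT, and Aqp4 at -0.68 in KO and 0.79 in WT. Intercalated cell markers had a median of 0.30 in KO and 0.71 in WT, with the anion exchangers Slc4a1 (0.60) and Slc4a9 (0.59) highest in KO and Car2 (-0.30) lowest. Their sum went the other way in KO, with 25329 in KO ALDO and 27312 in KO control, against 22266 in WT ALDO and 19376 in WT control. Aqp6, a channel of intercalated cells, had 1524 in KO ALDO and 735 in KO control (1.04), and was at 0.94 in WT.

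Metabolic genes were mostly below 0. Of 19 counted TCA cycle genes 1 was above 0, pyruvate carboxylase (Pcx, 0.10), and the median was -0.17, against 0.02 in WT. Of 29 respiratory chain and ATP synthase genes 1 was above 0, Cox6c, with a median of -0.08 and Sdhc (-0.31) the lowest. No member of either list was past 1.5-fold. Amino acid and kynurenine metabolism had a median of -0.18 with 5 of 24 above 0. Its highest member was the kynureninase Kynu, which splits kynurenine, with 464 in KO ALDO and 134 in KO control (1.68), against 299 in WT ALDO and 201 in WT control (0.54). Ass1 (0.34), Gldc (0.33), Hpd (0.32) and Oat (0.02) were the others above 0. Agxt2 (-0.63) and Afmid (-0.61), the formamidase upstream of Kynu, were lower. Genes of conjugation and carboxylesterase enzymes had a median of -0.18, and 1 higher and 4 lower members were past 1.5-fold. The glutathione transferase Gsta4 had 2398 in KO ALDO and 1147 in KO control (1.05). Ugt2a3 had 261 in KO ALDO and 612 in KO control (-1.18), and Ces1d had 5158 in KO ALDO and 8802 in KO control (-0.77). Members of the Ugt2b, Ces1 and Ces2 families are close copies, and probes may read several of them.

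Fatty acid oxidation, which the nuclear receptor PPAR-alpha controls and which proximal tubule uses for energy, had a median of -0.06 in KO and 0.25 in WT. In KO 12 of 35 members were above 0, against 29 of 35 in WT, and 3 of the 35 had a larger difference in KO than in WT. Cyp4a14, a fatty acid hydroxylase and PPAR-alpha target, had 11113 in KO ALDO and 4497 in KO control (1.30), against 14048 in WT ALDO and 1740 in WT control (3.00). Fabp1, the liver-type fatty acid binding protein, had 257 in KO ALDO and 186 in KO control (0.44), against 1461 in WT ALDO and 266 in WT control (2.39). Eci1 was at 0.02 in KO and 0.99 in WT, and Pdk4 at 0.29 in KO and 1.09 in WT. The acyl-CoA synthetase Acsm3 had 1607 in KO ALDO and 2953 in KO control (-0.87), and the receptor gene Ppara 1401 in KO ALDO and 1989 in KO control (-0.50). Sterol and fatty acid synthesis genes had a median of -0.005 in KO (0.05 with quantile normalization) and 0.24 in WT, and Dhcr7 (0.82), the last enzyme of cholesterol synthesis, alone was past 1.5-fold in KO.

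Several of the lowest genes belong to no cell list of the nephron. Carbonic anhydrase 3 (Car3), abundant in fat and muscle, had 2917 in KO ALDO and 7931 in KO control (-1.44), against 2332 in WT ALDO and 11254 in WT control (-2.26), and its other bright probe set gave -0.89 in the knockout pair. The adipocyte markers, of which Car3 is one, summed to 22436 in KO ALDO and 27428 in KO control, and this difference was no larger than that of Car3 alone. The other counted markers were Fabp4 (0.64) and Lpl (-0.15). Of the 5 dim markers Pparg (0.70) was above 0 and the others were below. Among these, adiponectin (Adipoq) had 84.5 in KO ALDO and 227 in KO control. The part of adherent fat was not tested. Hsd3b3, a steroid dehydrogenase, had 808 in KO ALDO and 2096 in KO control (-1.36), and 1100 in WT ALDO and 2306 in WT control (-1.06). The prostaglandin D synthase Ptgds had 3744 in KO ALDO and 8819 in KO control (-1.23), against 1672 in WT ALDO and 2016 in WT control (-0.27), and -1.14 in its other bright probe set. The prostacyclin synthase Ptgis was on the higher side, with 476 in KO ALDO and 238 in KO control (0.95). Smlr1 (-1.20), the cholecystokinin receptor Cckar (-1.12), Sugct (-1.10) and Pzp (-1.05) were the other named genes past 2-fold, and Sugct had -0.19 in its other bright probe set. Left out of the named genes but also past 2-fold were the clone 2810039B14Rik (-1.95) and Arnt (-1.42), which has another bright probe set of opposite sign. Pzp was the last gene inside 2-fold.

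Higher genes of other roles included the stress-induced regulator Nupr1, with 2917 in KO ALDO and 1178 in KO control (1.30, and 1.40 in its other bright probe set). The retinoic acid responsive Rarres1 had 707 in KO ALDO and 248 in KO control (1.45). Tmem87a had 1462 in KO ALDO and 454 in KO control (1.65), and was at 1.36 in WT. The serpin Serpinb6b (1.33), the growth factor carrier Fgfbp1 (1.34), the proprotein convertase Pcsk6 (1.30), Tmem54 (1.28), the phospholipase Pld2 (1.17), the vesicle protein Rab3b (1.11) and Dock8 (1.10) complete the 30 highest named genes with those above. Plekho1 (1.004) was the last inside 2-fold and Vim (0.996) the nearest outside.

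The knockout comparison shares no array with the comparison of WT ALDO and WT control, so the 2 can be set side by side. Genes are not independent replicates, and over the 9097 genes the Pearson correlation was 0.405 and the Spearman correlation 0.351. Over all 18193 genes, dim ones included, the Pearson correlation was 0.109. In WT 2-fold was passed by 30 higher genes (0.33%) and 32 lower genes (0.352%), and 1.5-fold by 186 higher (2.04%) and 146 lower (1.6%), with 51.9% of all genes above 0. Of the higher genes 8 were past 2-fold in both, which is 15.4% of the 52 in KO and 26.7% of the 30 in WT. They were Abcb1b, Adm, Cyp4a14, Ednrb, Mgp, Qars, Sost and Tmem87a. Of the lower genes 7 were past 2-fold in both, which is 58.3% of the 12 in KO and 21.9% of the 32 in WT, among them Car3, Cxcl13, Hsd3b3, Sema3g and Sugct. For Qars a further bright probe set had the opposite sign in KO. Of the 52 higher in KO, 44 had the same sign in WT, and of the 12 lower 11 had.

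**Figure D4:**
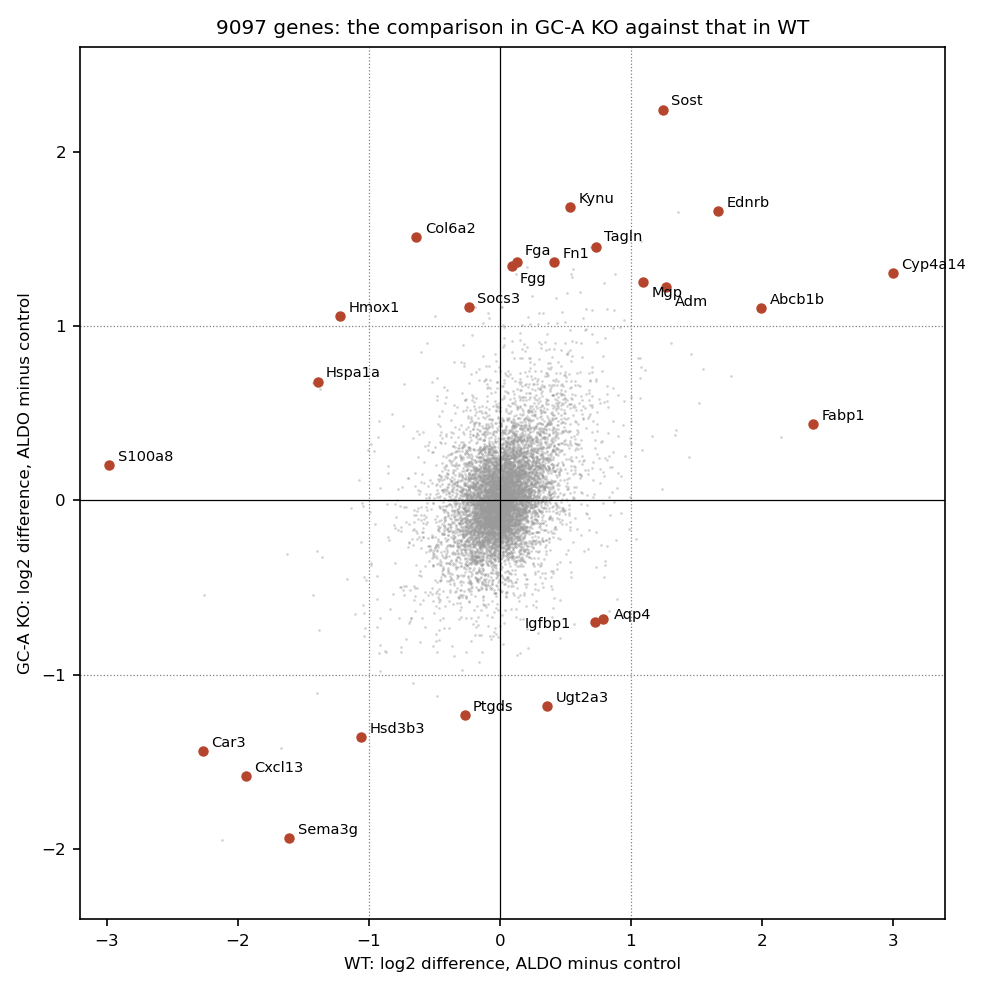
Log2 difference (ALDO minus control) of 9097 genes in GC-A KO (vertical axis) against that in WT (horizontal axis), with dotted lines at 2-fold and named genes in red. Ednrb, Sost and Sema3g lie far from 0 on both axes, Fga and Fgg lie near 0 in WT, and Hmox1 lies above 1 in GC-A KO and below -1 in WT.

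The difference of the effects (the difference in KO minus that in WT) was 1 or more in 54 genes (0.594%) and -1 or less in 30 (0.33%), and it was not tested. Among the genes described above it was largest on the positive side for S100a8, at 0.20 in KO and -2.98 in WT, so through its difference in WT. Hmox1, haem oxygenase, came next, with 612 in KO ALDO and 286 in KO control (1.06), against 262 in WT ALDO and 632 in WT control (-1.22). On the negative side Fabp1 and Cyp4a14 stood out, both through their difference in WT. Collagens had a larger difference in KO than in WT for 11 of 11 genes, cytoskeletal genes for 26 of 28, immediate early genes for 19 of 23 and heat shock genes for 19 of 22. Intercalated cell genes did so for 1 of 8, collecting duct genes for 2 of 12 and TCA cycle genes for 1 of 19. Over all genes counted, 50.6% had a larger difference in KO.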

How the data were processed

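The deposited values are probe set intensities on a linear scale from 4 Affymetrix mouse 3' expression arrays, and Affymetrix Expression Console is named per the submitters' processing notes. The sources used here do not name the algorithm or a version. Once the top and bottom 2% were left out, the largest mean intensity of the 4 arrays was 500.003. Such a value points to scaling by the authors to a common level, which would hide any change of the whole transcriptome. Scanner files were not used here.

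Values were taken as log2(intensity + 16). Of 45101 probe sets, 64 Affymetrix controls were left out, and 34945 with 1 gene symbol in the platform annotation were used (932 had several symbols and 9160 were not named there). Entrez identifiers of 34741 were found in RefSeq (GRCm38.p6), and 0 symbols changed. Each gene was read from its brightest probe set by mean over the 4 arrays, and the brighter 50% of 18193 genes were counted. With 1 array per group no test was made. Differences were counted at 2-fold and 1.5-fold, and lists were described by counts and medians.

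Named genes were the 30 highest and 30 lowest, leaving out clone names and genes whose further bright probe set had the opposite sign, every list member past 1.5-fold, up to 4 highest and 4 lowest members of each list (all members of lists of 12 or fewer), and Npr1, Npr2, Npr3, Nppa and Nppb. Not all are printed, and other list members named near the middle of their list were chosen after their values were seen. A further result is not reported here. The 63 lists (1263 genes, of which 887 were counted, 275 were dim and 101 had no probe set with a single symbol) and the members were chosen with earlier results of these data known. Alternatives were other pseudocounts, filters, normalizations and choices of probe set. The steps were tested on simulated data and run in Python 3.11.15 with numpy 2.4.6 and pandas 2.3.3.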

Additional observations from a re-analysis of the deposited data

Results flagged for a closer look

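For 6 of the genes described, ALDO against control was past 1.5-fold in opposite directions in KO and WT. Over all genes counted, 7 of the 312 higher at 1.5-fold in KO were past 1.5-fold the other way in WT. Of the 124 lower in KO, 3 were, and the 6 are among these genes. There is 1 array per group, so the difference between the genotypes was not tested for any of them. The following values are the difference in KO minus that in WT. Hmox1, haem oxygenase, had 2.28, with 612 in KO ALDO and 286 in KO control, against 262 in WT ALDO and 632 in WT control. The collagen chain Col6a2 had 2.15, with 793 in KO ALDO and 267 in KO control, against 220 in WT ALDO and 352 in WT control. The heat shock genes Hspa1a and Hspa1b, near-identical copies, had 2.07 and 2.01. Hspa1a had 1062 in KO ALDO and 656 in KO control, against 671 in WT ALDO and 1784 in WT control. The WT control array was the brightest of the 4 for Hmox1, Hspa1a and Hspa1b.

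Igfbp1, an insulin-like growth factor binding protein, had -1.42, with 725 in KO ALDO and 1185 in KO control, against 2016 in WT ALDO and 1213 in WT control. The water channel Aqp4 had -1.47, with 285 in KO ALDO and 467 in KO control, against 339 in WT ALDO and 189 in WT control. No group had 4 or more arrays, so single arrays could not be examined for outliers.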

How the results depend on the processing

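Over 9 alternatives (8 planned and 1 added after the data were seen), the 179 named genes past 1.5-fold kept their direction wherever they had a value, but not all stayed past 1.5-fold: 137 of 162 did with the mean of all probe sets, 164 of 179 with centring, 167 of 179 with a pseudocount of 64 and 173 of 179 with quantile normalization. With all genes kept, dim ones included, 697 genes lay above and 418 below by 2-fold or more, 1899 and 1233 by 1.5-fold, and 1068 and 936 had a difference in KO above or below that in WT by 2-fold, while the natriuretic peptide and cyclic GMP median was 0.15. In the brightest 25% these counts were 20, 6, 96, 49, 12 and 9, with medians of 0.93 for kidney injury, 0.78 for matrix glycoproteins, 0.38 for immediate early genes and -0.056 for semaphorins, ephrins and Slits (0.22 otherwise), the only change of sign by more than the SD of the spiked-in controls (0.11). With the mean of all probe sets, 83 genes had a larger and 50 a smaller difference in KO than in WT by 2-fold, and the medians were 0.53 for smooth muscle and 0.26 for the acute phase list. The kidney injury median was 0.49 with the brightest probe set taken over the KO arrays, and 0.91 with the brighter 50% taken over the KO arrays (the added alternative). Fewer genes enter the brightest 25% and more enter with dim ones kept, and otherwise the cause was not tested. Pseudocounts of 1 and 64, quantile normalization and centring left every count within 1.5 times and moved no list median by more than that SD, although medians nearer 0 than that could change sign. No paired analysis was possible because each group holds 1 array and the labels carry no replicate numbers. Dim probe sets limit what can be read, since a small absolute difference there is a large ratio.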

Other observations

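In the prostaglandin and leukotriene list 10 of 13 were above 0 (median 0.21). Beside Ptgis and Ptgds, the phospholipase Pla2g4a, which frees arachidonic acid, was at 0.84 and the prostaglandin F receptor Ptgfr at 0.74. Wnt genes had a median of 0.18 in both genotypes with 14 of 15 above 0, and only the inhibitor Sost was past 1.5-fold. Of the semaphorin, ephrin and Slit genes 19 of 26 were above 0, with Sema3f, a guidance ligand that restrains vessel growth, at 0.90 and Sema4b at 0.59, opposite to Sema3g. Insulin-like growth factor genes had a median of 0.22. Igfbp3 had 2921 in KO ALDO and 1474 in KO control (0.98), while Igfbp1 was at -0.70. The p53 and p21 list had a median of 0.11, with the kinase Plk2 (0.87), Phlda3 (0.70) and Cdkn1a (0.66) past 1.5-fold. S100 genes had a median of 0.15, led by S100a6 (0.82) and S100a4 (0.71). Complement genes had a median of 0.03 (-0.02 with centred arrays), where Serping1, C1qa and the protease C1s1 (0.69) were past 1.5-fold and Cfi (-0.42) was the lowest.

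Among enzymes, cytochrome P450 genes had a median of -0.10. Cyp27b1, which activates vitamin D, had 1376 in KO ALDO and 842 in KO control (0.70), Cyp1b1 was at 0.75, and Cyp2d9 had 1037 in KO ALDO and 1659 in KO control (-0.67). Carbonic anhydrases and aquaporins had the lowest median of all lists, -0.23 with 4 of 14 above 0, with Car3, Aqp4 and Car4 (-0.51) lowest and Aqp6 highest. Antioxidant genes had a median of -0.01, with Hmox1 and Abcc4 alone past 1.5-fold. Medians within 0.15 of 0 were also found for distal sodium, potassium and magnesium handling (0.10), MHC class I (0.11), claudins and keratins (0.14), cathepsins and lysosome (0.03), vitamin D, phosphate and calcium (0.04), cell cycle (0.03), renin-angiotensin and corticosteroid receptors (0.01), ribosomal proteins (-0.01), glycolysis, gluconeogenesis and pentose phosphate (-0.01) and the circadian clock (-0.06). Lists with too few counted members for a median included the juxtaglomerular list, with Gja4 at 0.49, and the erythroid list, with Slc25a37 at -0.18 and Bpgm at -0.22.

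A filter on the mean over the 4 arrays leaves out genes that are bright on a single array. Of the genes not counted, 399 reached the intensity limit of 247 on KO ALDO or KO control, and at 2-fold or more 24 of them were higher and 6 were lower. These were looked at after the values were seen, and a gene bright on 1 array only had to differ, so they are given as values. Besides Havcr1, Fgb, Timp1 and Tgfb2, the higher ones included Ankrd1, a mechanically induced repeat protein, with 334 in KO ALDO and 112 in KO control, against 39.5 in WT ALDO and 57.4 in WT control. Gdpd2 had 256 in KO ALDO and 7.03 in KO control, with 111 in WT ALDO and 7.38 in WT control. Steap4, a metalloreductase, had 434 in KO ALDO and 143 in KO control, with 427 in WT ALDO and 108 in WT control. The Wnt inhibitor Wif1 was the lowest, with 32.9 in KO ALDO and 341 in KO control, and 11.6 in WT ALDO and 267 in WT control.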
